A study of Rattus norvegicus with 6 samples.

Results

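Rat islets express a family of secreted and membrane-bound metalloproteinases together with their inhibitors, and 35 of these genes were followed here between 10 days and 3 months of age. The genes were chosen by symbol: matrix metalloproteinases (Mmp), membrane-anchored ADAM proteases, secreted ADAMTS proteases, the 4 tissue inhibitors of metalloproteinases (Timp1 to Timp4) and Reck. In the count files 55 rows of 17055 matched, and 35 of them had at least 15 reads summed over the 6 libraries, the minimum for a test. Just inside that minimum lay Adamts3 with 21 counts, and just outside it Adam4 with 14. Between 1 and 14 counts were found for 8 rows (Adam4, Timp4, Mmp3, Adam11, Adam28, Adamts19, Mmp10 and Mmp20). The 12 rows listed at 0 in every library were Mmp1a, Mmp8, Mmp21, Mmp27, Mmp28, Adam2, Adam5, Adam6, Adam7, Adam32, Adam34 and Adamts18.

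Polyadenylated RNA was sequenced from the hormone-producing islets of the pancreas of control Sprague-Dawley rats. Islets of pups aged 10 days, whose sex the labels do not give, made up the P10 group, and the adult group those of males aged 3 months, each with 3 libraries labelled as biological replicates (P10 replicates 1, 3 and 4, adult replicates 1, 2 and 3). Age therefore cannot be told apart from sex where the pups were not all male, and the labels do not say whether a library pools animals, so p-values rest on the spread among these libraries. The comparison addresses what changes in islet mRNA during postnatal maturation, the subject of the series.

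Metalloproteinases cut extracellular matrix and cell-surface proteins with a zinc ion in their active site. Most are made as inactive precursors, the membrane-type enzyme MMP14 activates the precursor of the gelatinase MMP2 on the cell surface with TIMP2 as a bridge, and TIMPs and the membrane-anchored RECK hold the active enzymes in check. ADAM proteases release growth factors, cytokines and receptors from cell membranes, and ADAMTS proteases trim proteoglycans and procollagens. In the pancreas the matrix-degrading members are known mainly from stromal cells, and ADAM10 and ADAM17 from most cell types.

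Gene counts per library ran from 3307415 to 6477825, so that 3 counts corresponded to between 0.403 and 1.10 normalised CPM (reads of a gene scaled to a common library size). Endocrine markers defined the tissue at both ages: all 12 were detected, with summed levels of 262000 to 327000 CPM at P10 and 568000 to 702000 CPM in adults. Low counts were scarce in some libraries. Rows with 1 to 5 counts numbered 293 in P10 replicate 1, 825 in adult replicate 3 and 872 in P10 replicate 3, against 1599 to 1901 in the others. Rows listed at 0 although the other libraries of the group predicted at least 10 counts numbered 373, 91 and 69 in these 3 libraries and 6 to 8 in the others. A 0 in P10 replicate 1 or adult replicate 3 was therefore not read as absence, and the 7 tested members at 0 in one of them are also given without it.

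Upstream sequences are shown for 5 members. Mmp7 was called lower, and of the inhibitors Timp1 was called higher and Timp2 lower. Mmp12 and Mmp13, which lie near Mmp7 on the same chromosome, did not pass the test. Mmp12, with 53 counts at P10 and 3 in adults, pointed the same way as Mmp7, and Mmp13 the other way. Each sequence is the 250 bases before the RefSeq transcription start on the GRCr8 build, written 5′ to 3′ along the gene's strand. Of the 35 tested members 25 matched this table, and those not matched were Adam9, Adam23, Adamts5, Adamts15, Mmp2, Mmp9, Mmp14, Mmp16, Mmp17 and Mmp19. Capitals mark matches, on either strand, to the AP-1 motif TGANTCA, the TATA box TATAAA or the GC box GGGCGG, and no matches overlapped in these windows.
Mmp7, chr8:13132793-13133042, plus strand: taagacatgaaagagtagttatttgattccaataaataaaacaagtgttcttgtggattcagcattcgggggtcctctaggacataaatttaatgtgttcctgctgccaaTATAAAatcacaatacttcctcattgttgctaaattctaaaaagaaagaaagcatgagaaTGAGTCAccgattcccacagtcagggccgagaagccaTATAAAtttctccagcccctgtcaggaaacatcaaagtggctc
Mmp12, chr8:12866402-12866651, plus strand: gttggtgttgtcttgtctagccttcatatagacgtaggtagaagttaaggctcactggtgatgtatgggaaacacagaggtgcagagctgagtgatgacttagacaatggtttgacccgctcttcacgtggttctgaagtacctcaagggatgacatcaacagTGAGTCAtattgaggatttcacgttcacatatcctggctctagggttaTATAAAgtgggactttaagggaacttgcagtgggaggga
Mmp13, chr8:12782579-12782828, plus strand: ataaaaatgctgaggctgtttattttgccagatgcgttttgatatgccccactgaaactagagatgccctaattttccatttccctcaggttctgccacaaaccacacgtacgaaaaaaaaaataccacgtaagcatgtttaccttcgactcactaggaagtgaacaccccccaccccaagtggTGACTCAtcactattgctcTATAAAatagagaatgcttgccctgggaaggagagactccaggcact
Timp1, chrX:3771123-3771372, minus strand: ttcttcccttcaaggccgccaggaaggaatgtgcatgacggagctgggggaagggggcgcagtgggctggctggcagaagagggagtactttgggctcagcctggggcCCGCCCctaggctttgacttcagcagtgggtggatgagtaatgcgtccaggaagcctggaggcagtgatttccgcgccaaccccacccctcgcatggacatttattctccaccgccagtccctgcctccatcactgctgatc
Timp2, chr10:104089215-104089464, minus strand: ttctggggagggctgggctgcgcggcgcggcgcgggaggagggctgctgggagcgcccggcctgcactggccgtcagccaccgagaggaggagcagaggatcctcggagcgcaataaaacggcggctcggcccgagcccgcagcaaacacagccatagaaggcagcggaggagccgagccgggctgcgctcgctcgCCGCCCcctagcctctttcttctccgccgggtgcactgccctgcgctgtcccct

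The 3 Mmp windows share an arrangement that the Timp windows lack. An AP-1 match began 80, 87 and 66 bases before the start of Mmp7, Mmp12 and Mmp13, and a TATA box 43, 39 and 47 bases before it. Timp1 and Timp2 each held a GC box and neither of the other motifs. Over the 25 windows the AP-1 motif was found in 4 (Adam19 was the other), against 6.34% of 33469 promoters of the same length. The TATA box was found in 6 against 12.9%, and the GC box in 18 against 30.5%. Median GC content was 66.4% in the members and 51.2% in all promoters. A match is a description of letters. Among the 4 genes with the AP-1 motif Mmp7 and Adam19 were called lower. Mmp12, which pointed lower, and Mmp13, which pointed higher, did not pass.

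Adult islets had lower mRNA levels of 15 of the 35 tested members and higher levels of 2, Timp1 and Adam9 (calls that scaling by library totals alone removed), while 18 did not pass (edgeR's quasi-likelihood test, false discovery rate (FDR) under 0.05 over all 11702 rows tested). Among all rows tested 11.6% were called lower and 10.8% higher, whereas among the members 42.9% were lower and 5.71% higher. The falls included the gelatinase Mmp2, its activator Mmp14, the sheddases Adam17 and Adam19, 6 ADAMTS proteases and the inhibitor Timp2. The median log2 fold change, adult over P10, was -1.32 for the members and -0.048 for all rows, and 28 members lay below 0, as did 52.8% of all rows. The P10 and adult libraries did not overlap in 22 members, 20 of them lower in adults, where 39.2% of all rows did not overlap and 20.8% were lower without overlap. Without P10 replicate 1 and adult replicate 3 together, a setting chosen after seeing the data, 16 members of 34 tested were lower and 1 was higher, beside 11.6% and 11.7% of 11191 rows.

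**Figure D1:**
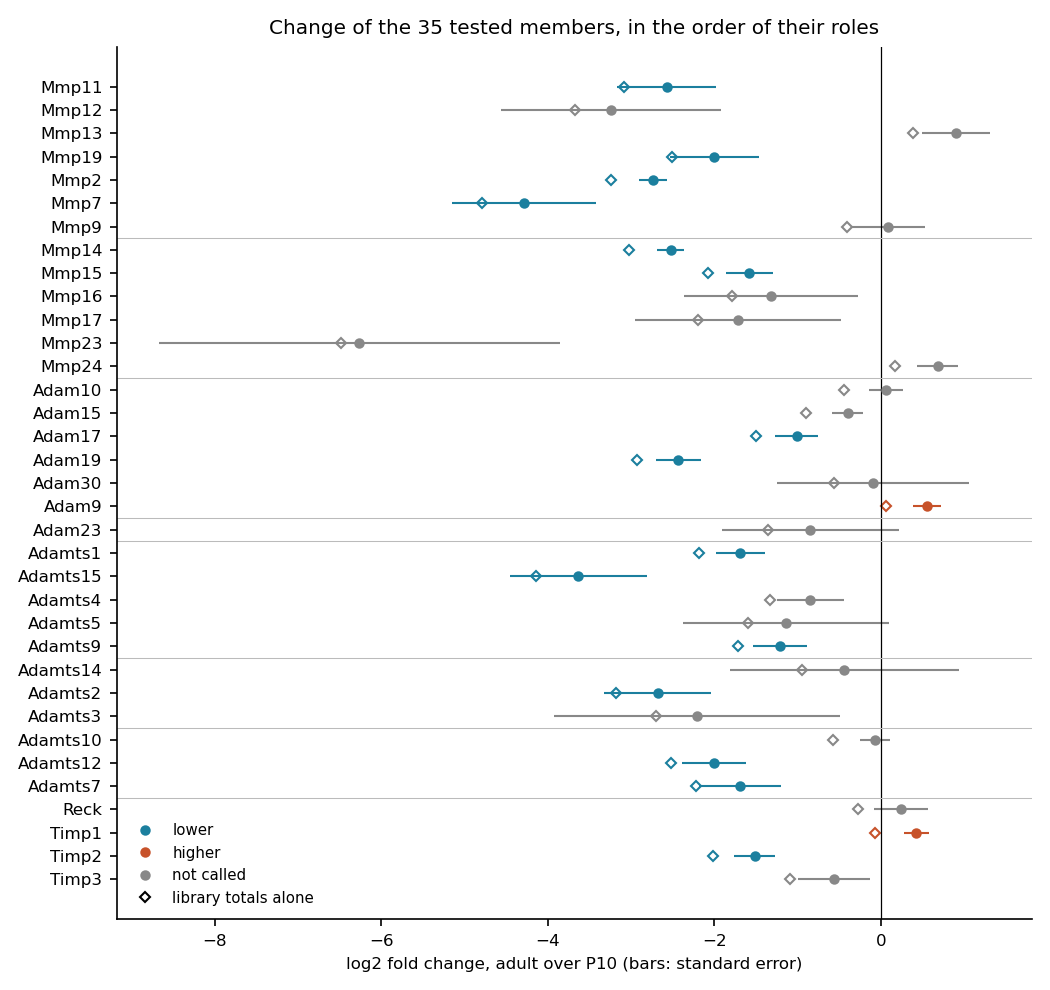
Log2 fold change of each tested member, adult over P10, with its standard error (filled points) and under library totals alone (open diamonds), grouped from top to bottom as secreted MMPs, membrane-bound MMPs, ADAMs (Adam23, without an active site, apart), 3 groups of ADAMTS and inhibitors. The 15 genes called lower lie between -4.28 for Mmp7 and -1.01 for Adam17; Mmp23, at 0 in all adult libraries, has a fitted value that is no measure of size.

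Directions depend on how libraries are scaled. The share of the 2 insulin genes was 28.3% to 33.6% of gene counts at P10 and 46.6% to 52.3% in adults. With library totals alone, without composition factors, the log2 fold changes of all rows shifted by a median of -0.50, 20 members were lower and none was higher. Under that scaling the share of all rows called lower also rose, from 11.6% to 31%, and the share called higher fell to 2.95%. The 15 falls were called under both scalings, whereas Timp1 went from a log2 fold change of 0.43 to -0.073 and Adam9 from 0.56 to 0.059.

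The gelatinase Mmp2, an enzyme that cuts denatured collagen and basement membrane collagen, was at 131, 164 and 145 CPM in P10 replicates 1, 3 and 4 and at 23.2, 23.8 and 19.6 CPM in adult replicates 1, 2 and 3. All adult libraries lay far below all P10 libraries. The mean fell from 147 ± 16.6 to 22.2 ± 2.28 CPM (SD, n = 3), or 6.67-fold, a log2 fold change of -2.74 ± 0.17 (SE; edgeR FDR = 3.85e-09).

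Mmp14, the membrane-type enzyme that activates the MMP2 precursor, also fell. It stood at 204, 168 and 147 CPM at P10 and at 30.5, 28.2 and 31.4 CPM in adults, again without overlap. It fell 5.75-fold (log2 fold change -2.52 ± 0.16, edgeR FDR = 8.56e-09). The adult values spread by only 1.61 CPM (SD, n = 3).

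Other secreted MMPs that fell were Mmp7, Mmp11 and Mmp19. Mmp7, the small epithelial enzyme matrilysin, had 53, 81 and 46 counts at P10 and 0, 5 and 0 in adults. All 5 adult counts lay in replicate 2. The ratio of normalised counts, P10 over adult, was 21.7 with an exact 95% counting interval of 9.14 to 67.7 (edgeR FDR = 0.00168). With adult replicate 2 left out, a floor of 3 reads over the adult group put Mmp7 27.3-fold lower. That value counts the 0 of adult replicate 3, which is not read as absence, and so is no minimum. With adult replicate 3 left out, the ratio was 11.0 (4.64 to 34.4).

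Mmp11, stromelysin 3, a stromal enzyme that is activated inside the cell, was at 6.44, 11.2 and 8.74 CPM at P10 and at 1.73, 2.20 and 0.733 CPM in adults. The groups did not overlap, and the level fell 5.95-fold (log2 fold change -2.57 ± 0.59, edgeR FDR = 0.00441). Mmp19, an enzyme that cuts basement membrane proteins, was at 4.29, 13.5 and 13.8 CPM at P10, where replicate 1 stood low, and at 2.77, 2.20 and 2.75 CPM in adults. It fell 4.00-fold (edgeR FDR = 0.0122), a call lost without P10 replicate 3 or 4 (FDR = 0.0766 and 0.0724) and against a null of 1.5-fold (FDR = 0.0503).

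The remaining secreted MMPs did not pass. Mmp9, the second gelatinase, typical of leukocytes, was at 8.86, 5.17 and 5.59 CPM at P10 and at 7.98, 6.60 and 6.42 CPM in adults. The groups overlapped, with a log2 fold change of 0.085 ± 0.44 (edgeR FDR = 0.919) whose sign turned under library totals alone. Mmp13, a collagenase that cuts fibrillar collagen, had 5.23, 9.61 and 4.13 CPM at P10 and 14.9, 11.0 and 10.3 CPM in adults. The adult values all lay above the P10 values, but the log2 fold change of 0.91 ± 0.41 missed the threshold (edgeR FDR = 0.128). Mmp12, the macrophage elastase, had 39, 8 and 6 counts at P10 and 1, 0 and 2 in adults, a ratio of 10.7 (3.46 to 53.4). It did not pass (edgeR FDR = 0.0912) except under library totals alone (FDR = 0.0382). Without P10 replicate 1 the ratio was 4.75 (1.33 to 25.8).

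Among the membrane-bound MMPs, 2 of 6 tested fell, Mmp14 and Mmp15. Mmp15, a membrane-type enzyme known from epithelia, was at 28.7, 24.5 and 25.5 CPM at P10 and at 11.1, 9.17 and 6.60 CPM in adults. No library overlapped, and it fell 2.99-fold (log2 fold change -1.58 ± 0.28, edgeR FDR = 0.000611). Mmp24, a membrane-type enzyme of neural tissue, was at 19.1, 33.4 and 29.6 CPM at P10 and at 30.2, 49.5 and 51.0 CPM in adults. Its groups overlapped through adult replicate 1, and the log2 fold change of 0.68 ± 0.25 did not pass (edgeR FDR = 0.0575). It passed when P10 replicate 3 or adult replicate 1 was left out and with no filter, and the FDR ran from 0.023 to 0.657 over the alternatives.

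Mmp23 had 0, 20 and 12 counts at P10 and 0 in every adult library. Against a floor of 3 reads over the adult group it was 6.44-fold lower. That value counts the 0 of adult replicate 3, which is not read as absence, and so is no minimum. The difference missed the threshold (edgeR FDR = 0.0773). It passed under library totals alone, with no filter, and when P10 replicate 1 was left out, alone or together with adult replicate 3. The 0 in P10 replicate 1 is also among those not read as absence, and without that library the value was 10.9-fold. Without P10 replicate 3 it was 3.83-fold, and both of these values still count the 0 of adult replicate 3. Without adult replicate 3 the bound was 3.27-fold. Mmp16 and Mmp17 were low at both ages, with 9 to 27 counts per library at P10 and 0 to 6 in adults, and did not pass (edgeR FDR = 0.406 and 0.361).

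**Figure D2:**
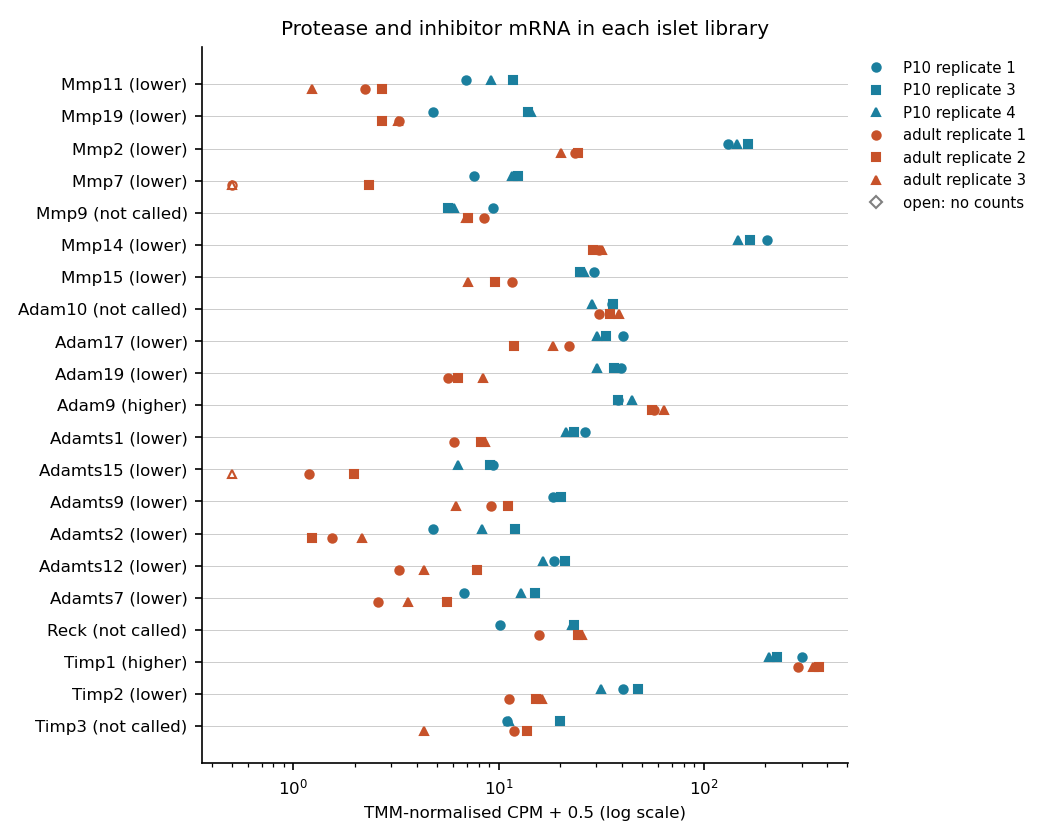
Normalised CPM plus 0.5, on a log axis, in each of the 6 libraries for the called members and for Mmp9, Adam10, Timp3 and Reck. The call stands after each symbol, and symbols are open where no read was counted. Mmp2 and Mmp14 separate the ages, at 131 to 204 CPM in P10 libraries and 19.6 to 31.4 CPM in adult ones, whereas Adam10, Mmp9, Reck and Timp3 overlap between the ages.

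Of the best-known sheddases Adam17 fell, while Adam10 did not pass. Adam17, which releases tumour necrosis factor and ligands of the epidermal growth factor receptor, was at 40.1, 32.8 and 29.9 CPM at P10 and at 21.5, 11.4 and 18.0 CPM in adults. It fell 2.02-fold without overlap (log2 fold change -1.01 ± 0.25, edgeR FDR = 0.00777), a call lost against a null of 1.5-fold (FDR = 0.131). Adam10, which cuts Notch receptors and cadherins, was at 35.3, 35.6 and 27.9 CPM at P10 and at 30.5, 34.5 and 38.3 CPM in adults, values that overlapped in part, with the lowest in a P10 library and the highest in an adult one. Its log2 fold change was 0.064 ± 0.20 (edgeR FDR = 0.863), and -0.44 under library totals alone (FDR = 0.129).

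Adam19, a sheddase of neuregulin known from mesenchyme, was at 39.0, 35.9 and 29.9 CPM at P10 and at 5.20, 5.87 and 7.88 CPM in adults. It fell 5.40-fold (log2 fold change -2.43 ± 0.27, edgeR FDR = 6e-06), the largest fall among the 6 tested ADAMs with an active site. Adam9, a widely expressed ADAM, was at 37.6, 37.7 and 44.5 CPM at P10 and at 56.5, 55.4 and 63.2 CPM in adults. Every adult library lay above every P10 library, a 1.47-fold rise (log2 fold change 0.56 ± 0.17, edgeR FDR = 0.0267). The Adam9 call was lost without P10 replicate 3 or any 1 of the adult libraries (FDR from 0.051 to 0.0853), and its log2 fold change was 0.059 under library totals alone.

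Adam15, an ADAM of epithelium and endothelium, was at 39.5 to 45.6 CPM at P10 and at 29.5 to 34.5 CPM in adults, without overlap. The log2 fold change of -0.39 ± 0.19 did not pass (edgeR FDR = 0.145) except under library totals alone (FDR = 0.00177). Adam23, a neural adhesion protein without a protease active site, had 13 to 23 counts at P10 and 9, 6 and 0 in adult replicates 1, 2 and 3. It did not pass with all libraries (edgeR FDR = 0.629) or without adult replicate 3 (FDR = 0.923), nor did Adam30 (edgeR FDR = 0.963).

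Of the ADAMTS proteases 6 of 11 tested fell and none rose. Among those that cut the proteoglycans versican and aggrecan, 3 of 5 fell. Adamts1 was at 25.8, 22.8 and 20.9 CPM at P10 and at 5.55, 7.70 and 8.07 CPM in adults, a 3.22-fold fall without overlap (log2 fold change -1.69 ± 0.30, edgeR FDR = 5e-04). Adamts9 was at 17.9, 19.7 and 19.2 CPM at P10 and at 8.67, 10.6 and 5.68 CPM in adults, and fell 2.32-fold (edgeR FDR = 0.0114). Its call was lost without adult replicate 3 (FDR = 0.0526) and against a null of 1.5-fold (FDR = 0.0938).

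Adamts15 had 66, 58 and 24 counts at P10 and 2, 4 and 0 in adults. The fitted fall was 12.4-fold (log2 fold change -3.63 ± 0.83, edgeR FDR = 0.00398) and all P10 libraries lay above all adult ones. The size rests on few adult reads. Without adult replicate 3, which was at 0, the fitted fall was 7.03-fold, and without adult replicate 2 it was 27.7-fold. The ratio of counts without adult replicate 2 or 1 was 33.7 (9.15 to 280.5) or 16.5 (6.32 to 61.4). Values that keep adult replicate 3 count its 0, which is not read as absence. Adamts4 was at 24.4, 9.61 and 15.3 CPM at P10 and at 12.1, 11.0 and 5.13 CPM in adults. Its groups overlapped, and it did not pass (edgeR FDR = 0.148) except under library totals alone (log2 fold change -1.33, FDR = 0.0123). Without P10 replicate 1 and adult replicate 3 together its log2 fold change was -0.064 (FDR = 0.927). Adamts5, with 27, 13 and 7 counts against 9, 1 and 0, did not pass either (log2 fold change -1.13 ± 1.24, edgeR FDR = 0.571). Its value was -0.45 without adult replicate 3 (FDR = 0.829) and -3.91 without adult replicate 1 (FDR = 0.155).

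Procollagen N-propeptidases remove the amino-terminal extension of fibrillar procollagens. Of the 3 tested, Adamts2 fell, from 4.29, 11.5 and 7.77 CPM at P10 to 1.04, 0.733 and 1.65 CPM in adults, or 6.42-fold (log2 fold change -2.68 ± 0.64, edgeR FDR = 0.00592). Without P10 replicate 3 the call was lost (FDR = 0.0743). Without adult replicate 3 only 5 adult counts were left, and the ratio of counts was 8.69 (3.64 to 27.2). Adamts14 was listed at 0 in P10 replicate 1 and adult replicate 3 but had 21 and 16 counts in the other P10 libraries and 10 and 5 in the other adult ones, and did not pass (edgeR FDR = 0.863, and 0.772 without these 2 libraries). Adamts3 had 19 counts at P10 and 2 in adults, a ratio of 5.73 (1.38 to 50.8) that did not pass (edgeR FDR = 0.400). Without adult replicate 3, which was at 0, the ratio was 2.91 (0.702 to 25.7), an interval that includes equal levels. Both adult counts lay in replicate 2, and without it a floor of 3 reads put Adamts3 2.88-fold lower. That value counts the 0 of adult replicate 3, which is not read as absence, and so is no minimum.

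Adamts7 and Adamts12, related proteases that cut cartilage oligomeric matrix protein, fell together. Adamts12 was at 18.1, 20.7 and 16.0 CPM at P10 and at 2.77, 7.33 and 3.85 CPM in adults, a 4.00-fold fall without overlap (edgeR FDR = 0.00109). Adamts7 was at 6.31, 14.6 and 12.4 CPM at P10 and at 2.08, 5.13 and 3.12 CPM in adults, a 3.24-fold fall (edgeR FDR = 0.019) that missed the threshold when any of P10 replicates 3 and 4 and adult replicates 1 and 3 was left out (FDR from 0.0596 to 0.12) and against a null of 1.5-fold (FDR = 0.0819). Adamts10, which binds fibrillin microfibrils, was at 46.0, 59.4 and 52.5 CPM at P10 and at 55.8, 45.5 and 49.1 CPM in adults. Those groups overlapped, with a log2 fold change of -0.070 ± 0.17 (edgeR FDR = 0.822), or -0.57 under library totals alone, where it passed (FDR = 0.0324).

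Of the 4 inhibitors tested Timp1 was called higher, though not under library totals alone, Timp2 was called lower, and Timp3 and Reck did not pass. Timp1, a secreted inhibitor of most soluble MMPs, was at 301, 227 and 208 CPM at P10 and at 287, 363 and 342 CPM in adults. P10 replicate 1 lay above adult replicate 1, so the groups overlapped. The rise was 1.35-fold (log2 fold change 0.43 ± 0.15, edgeR FDR = 0.0456) and missed the threshold when any of P10 replicates 3 and 4 and adult replicates 2 and 3 was left out (FDR from 0.0972 to 0.179). Under library totals alone the log2 fold change was -0.073 (FDR = 0.753).

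Timp2, which inhibits MMP2 and also takes part in its activation by MMP14, was at 39.9, 47.5 and 31.1 CPM at P10 and at 10.7, 14.7 and 15.8 CPM in adults. Every adult library lay below every P10 library, and the level fell 2.86-fold (log2 fold change -1.51 ± 0.25, edgeR FDR = 0.000233). Timp3, the matrix-bound inhibitor that also blocks ADAM17 and ADAMTS enzymes, was at 10.5, 19.4 and 10.7 CPM at P10 and at 11.4, 13.2 and 3.85 CPM in adults, and did not pass (edgeR FDR = 0.394). Timp4 had 4 counts in P10 replicate 3 and 3 in adult replicate 2 and none elsewhere, too few for a test.

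Reck, the membrane-anchored inhibitor of MMP2, MMP9 and MMP14, was at 9.66, 22.9 and 22.3 CPM at P10 and at 15.3, 23.8 and 24.9 CPM in adults. Replicate 1 was the lowest of each group. The ages overlapped (log2 fold change 0.24 ± 0.32, edgeR FDR = 0.651), and the sign turned under library totals alone (-0.28) and without P10 replicate 1 (-0.065).

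Ratios of 2 members within a library do not depend on library scaling, and 6 were compared. Genes differ in length, so that only the change of a ratio with age is read. Counts of Mmp14 per count of Reck were 21.1, 7.36 and 6.59 at P10 and 2.00, 1.19 and 1.26 in adults, a log2 difference of -2.81. Counts of Mmp2 per count of Timp2 were 3.29, 3.46 and 4.67 at P10 and 2.16, 1.63 and 1.24 in adults, 2.30-fold lower. In both ratios every adult library lay below every P10 library.

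Counts of Mmp14 per count of Timp2 went from 5.11, 3.55 and 4.73 to 2.84, 1.93 and 1.99, 1.99-fold lower. Adam17 per Adam10 went from 1.14, 0.921 and 1.07 to 0.705, 0.330 and 0.469, 2.17-fold lower. For these 4 ratios the groups did not overlap, and an exact permutation test (two-sided) gave p = 0.1, the lowest value possible with 3 libraries a group (0.15 after Benjamini-Hochberg adjustment over 6 ratios). This test, with 3 libraries a group, cannot bring a single ratio past 0.05. Adam17 per Timp3 and Timp1 per Timp3 overlapped between the ages (exact p = 0.7 and 0.3, adjusted 0.7 and 0.36), with adult replicate 3, the lowest in Timp3, at the top of both.

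**Figure D3:**
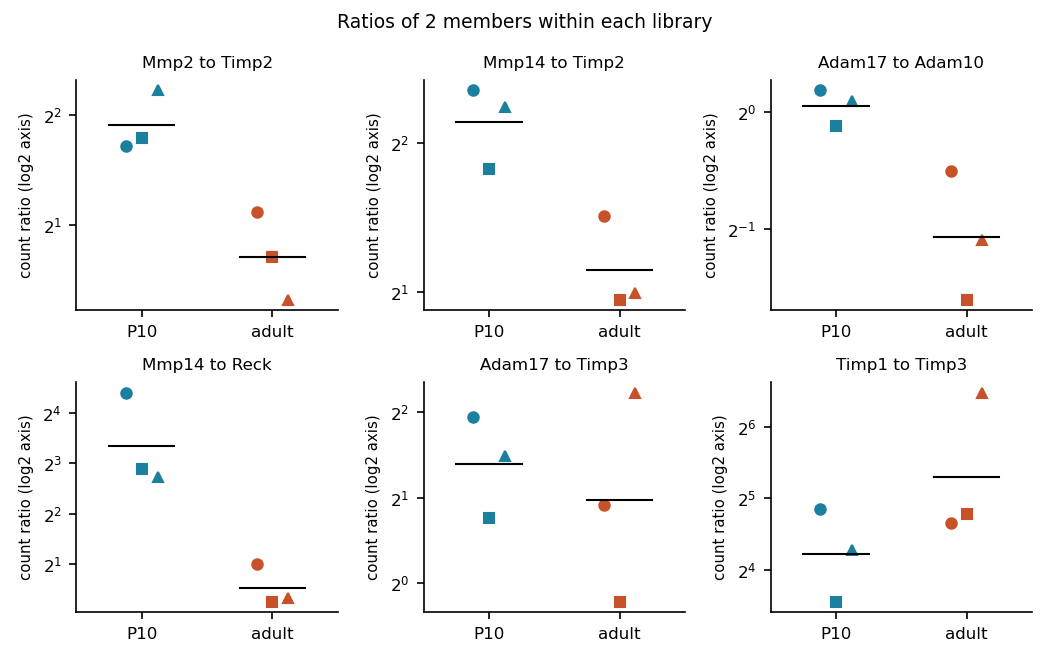
Ratio of the counts of 2 members in each library on a log2 axis (circle, square and triangle: replicates 1, 3 and 4 at P10 and replicates 1, 2 and 3 in adults; bars: mean of the log2 ratios). Mmp2 to Timp2, Mmp14 to Timp2, Adam17 to Adam10 and Mmp14 to Reck separate the ages, with Mmp14 to Reck at 6.59 to 21.1 in P10 libraries and 1.19 to 2.00 in adult ones.

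Genes that work with these proteases were described from lists chosen with earlier results of these data known. Of all rows 11.6% were called lower and 10.8% higher, or 31% and 2.95% under library totals alone. Of 10 tested plasminogen activators, convertases and other MMP regulators 2 rose and 4 fell. Plat, tissue plasminogen activator, rose 1.99-fold (edgeR FDR = 7.65e-05). Lrp1, an endocytic receptor that clears MMPs and TIMPs, fell 2.93-fold (FDR = 8.54e-07), and Serpine2, an inhibitor of plasminogen activators, fell 2.67-fold (FDR = 0.000197). The list's median log2 fold change was -0.22, and under library totals alone 2 rose and 7 fell (median -0.72).

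Partners of ADAM10 and ADAM17 and the beta-secretases split, with 3 of 8 tested higher and 2 lower and a median log2 fold change of 0.11. Under library totals alone none was higher and 3 were lower, and the median was -0.39. Rhbdf1 and Frmd8, which carry ADAM17 to the cell surface and hold it there, fell with it, by 6.16-fold (edgeR FDR = 7.12e-05) and 2.16-fold (FDR = 0.00189). The beta-secretases Bace1 and Bace2 were called higher, by 1.71-fold (FDR = 0.00462) and 2.12-fold (FDR = 0.00492), but scaling by library totals alone left both short of the threshold (log2 fold changes 0.27 and 0.59, FDR = 0.283 and 0.0855). Of 20 tested substrates shed by ADAM10 or ADAM17, 5 fell and none rose (median -0.098), and under library totals alone 10 fell and none rose (median -0.59). The share of all rows called lower rose likewise between these scalings, from 11.6% to 31%. Notch2 and Notch3, receptors cut by ADAM10, fell 2.38-fold (FDR = 0.000689) and 4.35-fold (FDR = 0.000211).

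Matrix substrates of MMPs and ADAMTS fell in 8 of 11 cases, with a median of -2.29, beside 11.6% of all rows. Under library totals alone 10 fell, beside 31% of all rows. Col1a1 and Col3a1, fibrillar collagen chains, fell 14.9-fold (edgeR FDR = 1.1e-11) and 11.1-fold (FDR = 5.53e-10). Adamtsl4, a fibrillin-binding protein without a protease domain and the only one of its list tested, did not pass (FDR = 0.497).

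Markers of other cells were read in the same libraries, beside 11.6% of all rows called lower and 10.8% higher. Of 12 fibroblast and stellate cell markers 9 of 10 tested were lower, with a median log2 fold change of -2.76. Their summed level was 2790 to 3560 CPM at P10 and 283 to 402 CPM in adults. Col1a2 and Mfap4 of that list were listed at 0 in every library although Col1a1 was abundant, so that a row at 0 throughout does not show absence. Duct markers were lower in 3 of 6 tested (summed 1070 to 1120 CPM at P10 and 174 to 206 CPM in adults), and endothelial markers in 3 of 10 (219 to 329 and 136 to 191 CPM).

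Schwann and neural cell markers were lower in 2 of 6 tested (54.4 to 97.7 and 22.4 to 40.0 CPM) and macrophage and leukocyte markers in 1 of 10 (93.3 to 175 and 79.6 to 137 CPM). Of the acinar markers 3 of 8 were higher and 4 lower (2820 to 4040 and 1000 to 3900 CPM). Every acinar marker was highest among the adult libraries in adult replicate 3. Prss1, for example, was at 196, 201 and 940 CPM in adult replicates 1, 2 and 3. Of the 12 endocrine markers 7 were higher and 1 was lower (median log2 fold change 0.71). Under library totals alone 5 endocrine markers were higher and 4 lower (median 0.21), and 2 acinar markers were higher and 4 lower. The markers called lower under that scaling were 9 of 10 tested for fibroblasts, 6 of 10 for endothelium and 5 of 6 for ducts. For macrophages and leukocytes they were 3 of 10, and for Schwann and neural cells 3 of 6. Of all rows 31% were called lower and 2.95% higher under it. The part of any of these cell types in the falls of Mmp2, Mmp14, Adam19, Timp2 and the ADAMTS genes was not tested, and in whole islets fewer cells of a type and less RNA per cell cannot be told apart.

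**Figure D4:**
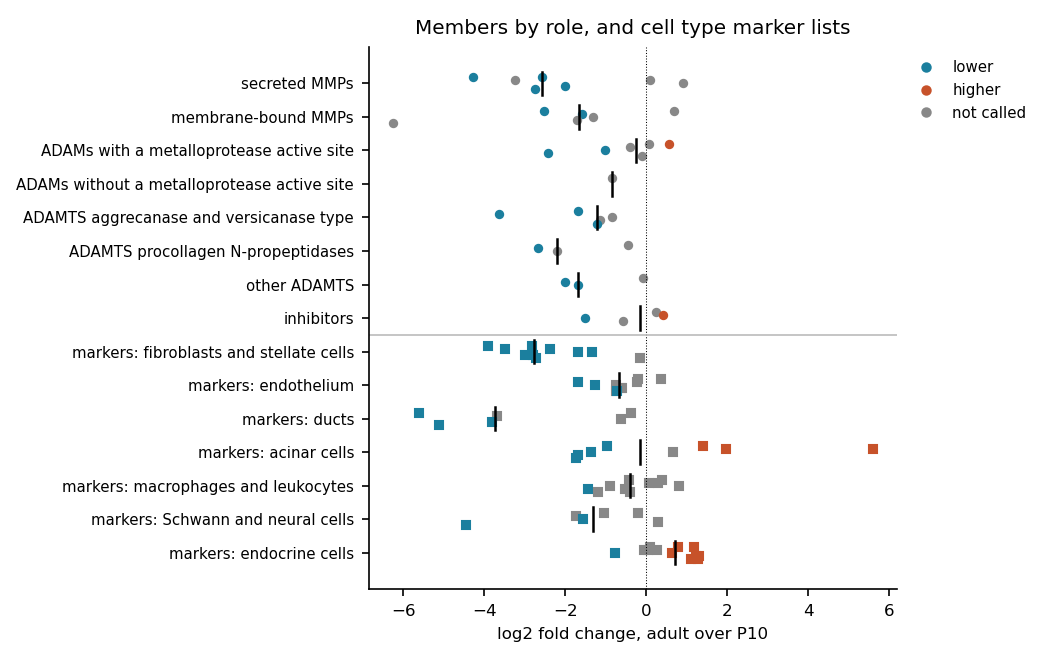
Log2 fold change, adult over P10, of each tested member by role (circles, above the grey line) and of the cell type marker lists (squares), with black bars at the median. The medians of secreted MMPs (-2.57) and of fibroblast markers (-2.76) lie far to the left, that of ADAMs with an active site (-0.25) and of inhibitors (-0.16) near 0, and that of endocrine markers at 0.71.

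By role, the falls were spread over 7 of the 8 groups into which the tested members were placed. Secreted MMPs fell in 4 of 7 cases, with a median log2 fold change of -2.57. Of the ADAMs with an active site 2 of 6 fell and 1 rose (median -0.25), and of the inhibitors 1 of 4 fell and 1 rose (median -0.16). The 1 tested ADAM without an active site, Adam23, did not pass. Differences between roles were not tested.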

How the data were processed

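Per the labels' protocols, oligo(dT)-selected RNA of islets went into single-end libraries without strand information. The authors deposited 1 file of raw counts for each library, by gene symbol. Per the submitters' processing notes, Bowtie2, TopHat2 2.0.10 and HTSeq were used with the rn5 genome; DESeq and edgeR are also named, for no stated step. Alignments that were not unique stand in a counter row of the deposited files (15.1% to 27.7% of all reads listed), so genes with near-identical copies can be undercounted, and overlapping genes cannot be told apart without strand. The 5 counter rows were left out. A deposited table of all libraries, in which 25 of 17055 row names differ from the single files, was not used.

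Rows with at least 15 counts in all were tested with edgeR 4.0.16 in R 4.3.3 (TMM factors, quasi-likelihood test, age as the only term, Benjamini-Hochberg FDR over 11702 rows, threshold 0.05). Standard errors are the log2 fold change over the square root of F. CPM are normalised by the TMM factors. With up to 5 counts in a group the ratio has an exact 95% counting interval, and intervals and floors cover counting error only.

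The members and lists were chosen with earlier results of these data known. Values per library are given for called members with at least 2 CPM on average and for 10 fixed genes. The other members are given by counts, range or single values, and Mmp13, Mmp24, Adamts4 and Adamts10 by values per library too. Of each related list the 2 smallest p in the direction most genes took and the 1 smallest called in the other are named, or the 2 smallest of each where equal numbers went either way. Rhbdf2 is named besides. Scaling was varied (relative log expression factors, library totals alone, TMM without hormone and acinar genes), as was the filter (none, filterByExpr, or 5 CPM in 3 libraries). The other alternatives were DESeq2 1.42.0, a replicate block, a null of 1.5-fold and leaving out each library. Leaving out P10 replicate 1 and adult replicate 3 together was added after seeing the data.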

Additional observations from a re-analysis of the deposited data

How the results depend on the processing

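The count of members lower in adults, 15, stayed between 11 and 20 under all alternatives, and between 12 and 16 when single libraries were left out. Members tested ranged from 24 at 5 CPM in 3 libraries to 43 with no filter. The count of 20 came from library totals alone, where 31% of all rows were called lower. The count of members higher, 2, was 0 under library totals alone, with the replicate block and against a 1.5-fold change, 3 with no filter (Mmp24 was added), 1 at 5 CPM in 3 libraries and without P10 replicate 1 and adult replicate 3 together, and 0 to 2 without single libraries. Over all rows library totals alone gave 345 higher and 3622 lower (8.70% of calls higher against 48.2%), and a null of 1.5-fold gave 343 and 604. Without single libraries 916 to 1222 were higher and 993 to 1242 lower. DESeq2 and relative log expression factors kept all 35 members on their side of the threshold.

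Signs turned for 7 members, of which Timp1 alone was called with all libraries, and for 1 ratio. Under library totals alone the log2 fold changes were -0.40 for Mmp9, -0.44 for Adam10, -0.28 for Reck and -0.073 for Timp1, and without the 2 libraries short of low counts Reck was at -0.20. Without single libraries Mmp9 ran from -0.057 to 0.38, Adam10 from -0.037 to 0.14, Adam30 from -0.69 to 0.51, Adamts10 from -0.15 to 0.038, Adamts14 from -1.46 to 0.24 and Reck from -0.065 to 0.47, and the log2 ratio of Adam17 to Timp3 from -1.05 to 0.17. The cause was not tested.

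Replicate numbers 1 and 3 occur in both groups, and nothing says that a number marks shared animals. Deviations of same-numbered libraries correlated at -0.036 and -0.005 over 8774 rows, and those of differently numbered ones at -0.072 to 0.055. With the replicate block 11 members were lower and none higher. Adam17 (FDR = 0.0562), Mmp19 (0.194), Adamts2 (0.0918) and Adamts7 (0.0505) missed the threshold, and the signs of Adam10 (-0.048) and Adamts14 (0.22) turned. Over all rows 980 were higher and 954 lower with the block. Where a group holds 5 counts or fewer, the counting intervals show how far depth limits the size of a change.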
